A study of Homo sapiens with 6 samples.

Results

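The genes described here carry the symbols of centrosomal proteins (CEP) or centromere proteins (CENP), or are the shugoshins SGO1 and SGO2. A symbol alone does not settle where a protein works. The genes were read in NCI-H1975 cells, an established human lung adenocarcinoma (LUAD) line. Its 3 control libraries came from cells that received the empty PCDNA3.1 plasmid, and its 3 SAM68 libraries from cells that received PCDNA3.1-SAM68. The labels give 2 µg per well beside the SAM68 plasmid and no separate amount for the control plasmid. Both groups were treated with a lipid reagent for 48 h, and transient transfection does not reach every cell. Splicing events were chosen by gene symbol and by their measured reads, with at least 10 junction reads per library on average. Of 66395 tested events in all, 384 in 59 genes were members, and these 59 genes were among the 10147 genes whose junction reads were tested. The tables list 423 member events under 60 symbols. The lowest that was kept, in CEP57L1, had 10.2 reads and the highest of the 39 left out, in CEP290, had 9.83, while CEP295NL had no event above the minimum. CENPS-CORT is a read-through of CENPS whose reads may be shared with that gene, and CENPBD1P1 is a pseudogene, so both are uncertain.

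The centrosome is the main microtubule organizing center of animal cells. Its centrioles are copied once per cell cycle by CEP proteins such as CEP152, CEP192 and CEP135, are held together by a linker anchored on CEP250, and can serve as the base of a cilium through proteins such as CEP164 and CEP290. The centromere is marked by the histone variant CENPA, on which CENPC and the other inner kinetochore proteins, CENPK among them, are built. CENPE and CENPF join the outer kinetochore in mitosis, and the shugoshins recruit a phosphatase that guards the cohesin between sister chromatids.

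An event is a pair of alternative forms that rMATS counts by the reads crossing their junctions: skipped exons (SE), mutually exclusive exons (MXE), alternative 3ʹ or 5ʹ splice sites (A3SS, A5SS) and retained introns (RI). The percent spliced in (PSI) is the length-corrected share of the inclusion form, and differences are in percentage points, the SAM68 mean less the control mean. The most read event of each gene stood for the gene, scaled to reads per 1000000 of such reads in the library (rpm). The skipped exon table held 16951876 to 19737729 junction reads per library. KHDRBS1, which encodes SAM68, had 311, 328 and 316 rpm in the controls and 1230, 1260 and 1276 rpm in the SAM68 libraries, to which transcripts of the plasmid can add. Of 9 epithelial markers, 4 had a listed event, and their sum was 733 to 995 rpm in controls and 761 to 770 rpm in the SAM68 libraries. The highest sum came from KRT8 in control library 1 (520 rpm, and 229 to 253 rpm elsewhere), while KRT7 was lower and KRT18 higher in each SAM68 library than in each control library. The lung marker NAPSA did not exceed 0.917 rpm in any library. None of the 4 fibroblast and 2 endothelial markers had a listed event, and of 3 immune markers only CD68, also a lysosomal gene of other cells, was read. No pair of libraries agreed within sampling noise over the 59 genes, the chi-square divided by its degrees of freedom being 2.19 to 3.11 within and 3.45 to 5.22 between the groups. Over all genes it was 3.15 to 4.56 within and 4.50 to 6.45 between them.

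The question asked of these libraries was whether more SAM68 changed the reads or the splicing of the centrosome and centromere genes. Junction reads of CEP290, SGO2 and CEP250 fell, and no member gene rose at an adjusted p under 0.05 in limma with Benjamini-Hochberg adjustment over all genes. These 3 of 59 genes (5.08%) stand beside 0.296% of all tested genes that were lower and 0.118% that were higher at that threshold. With median-of-ratios scaling the members past it numbered 0, while all genes went from 30 lower and 12 higher to 11 lower and 14 higher, and with all events of a gene summed 1 member, CEP290, remained past it beside 15 lower and 3 higher of all genes. With the further limit of a log2 fold change of 1, CEP290 and SGO2 were called lower beside 0.0394% of all genes, which is 4 genes, and no member was called higher beside 0.00986%. At an unadjusted p under 0.05, 11 members were lower and 1 was higher, while the shares over all genes were 8.33% lower and 3.74% higher. In 13 members each SAM68 library lay under each control library and in 3 it lay over, where 10.8% and 6.04% of all genes did so. The median log2 fold change was -0.12 over the members and -0.03 over all genes, and 40 of the 59 (67.8%) were lower, as were 57.0% of all genes. In RNA from a whole culture, fewer cells in one phase of the cycle and less RNA per cell cannot be told apart.

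**Figure D1:**
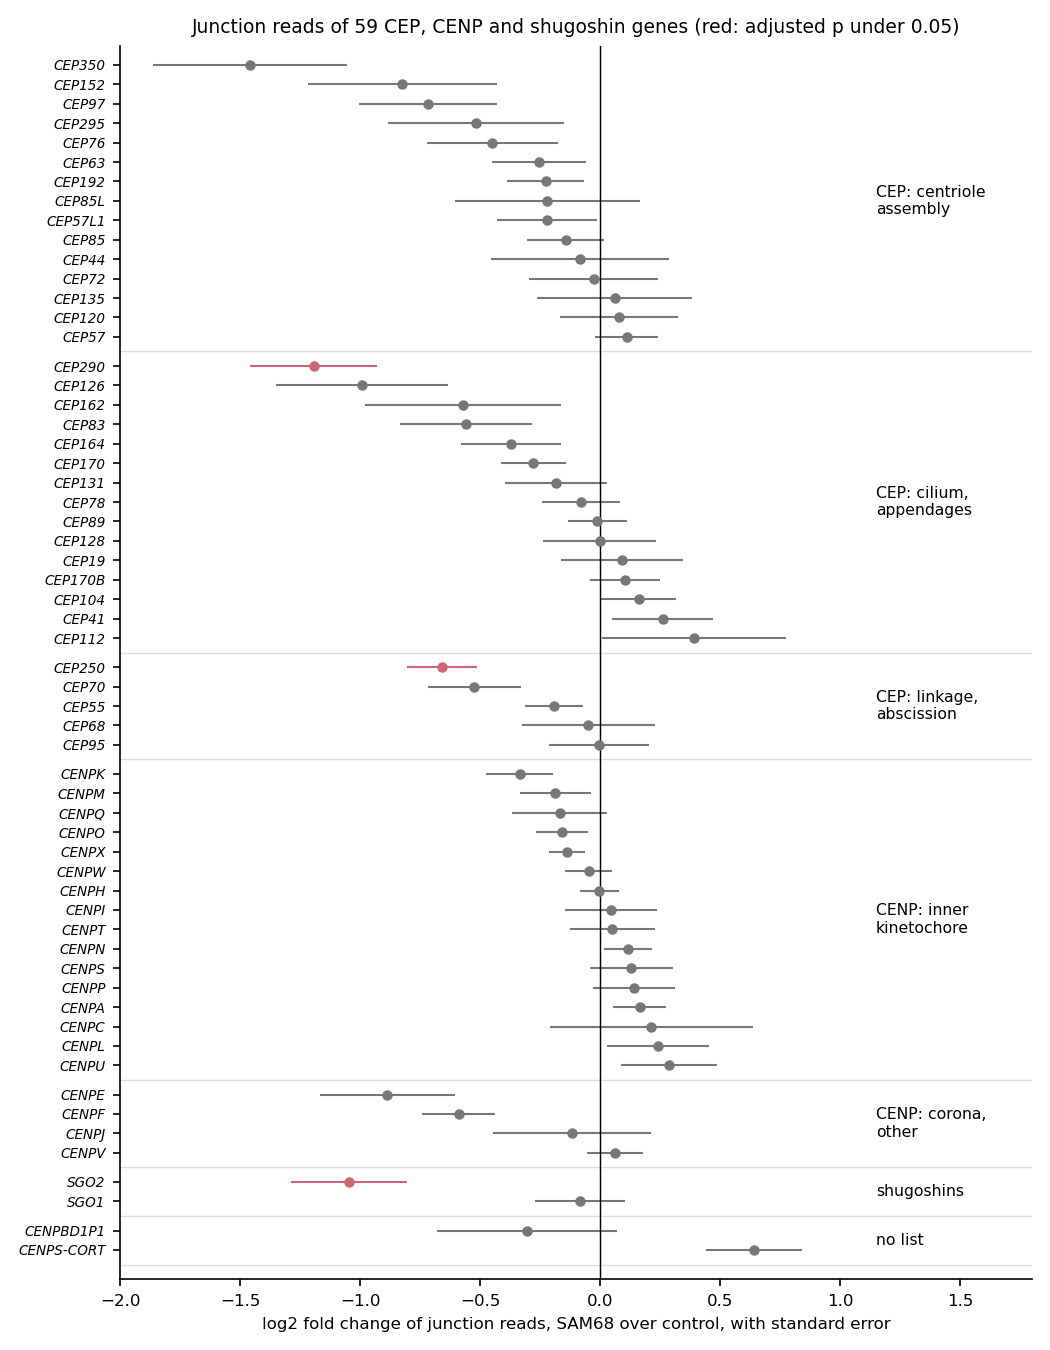
Log2 fold change of junction reads (SAM68 over control, on the log2(rpm + 0.5) scale) for each of the 59 genes, grouped by role, with the standard error of the limma fit as bars and genes with an adjusted p under 0.05 in red. CEP290, CEP250 and SGO2 are red, and the inner kinetochore genes lie close to 0, between -0.34 and 0.29.

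CEP290 (ENSG00000198707.14, chr12:88049016-88142099, - strand, GRCh38) encodes a gatekeeper protein of the ciliary transition zone. It had 9.31, 11.8 and 10.9 rpm in the controls and 4.26, 4.40 and 4.40 rpm in the SAM68 libraries. The control mean was 10.7 ± 1.25 rpm (SD, n = 3). The SAM68 mean was 4.36 ± 0.083 rpm (SD, n = 3), and the groups did not overlap. The log2 fold change was -1.19 ± 0.26 (standard error), with an adjusted p of 0.0385 from limma. This fitted fold change corresponds to 43.7% of the control level and is not the ratio of the 2 means. All 6 tested events of CEP290 had fewer scaled reads in the SAM68 group, with log2 ratios from -1.20 to -0.43. The 3 events in which the groups did not overlap involve exons 47 and 48 of the canonical transcript, and they share junctions. The most read event had only 24 to 74 reads per library.

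SGO2 (ENSG00000163535.17, chr2:200510008-200584096, + strand) encodes the shugoshin that protects centromeric cohesin in meiosis and takes part in the mitotic centromere. It had a single tested event, the skipping of exon 2, which holds the start of the coding sequence. The control libraries had 14.8, 16.1 and 11.9 rpm and the SAM68 libraries 5.36, 6.06 and 8.80 rpm. The highest SAM68 library stayed under the lowest control library. This gave a log2 fold change of -1.05 ± 0.24 (standard error) and an adjusted p of 0.0492 from limma. Its paralog SGO1, which guards cohesin in mitosis, had 14.1, 15.3 and 19.9 rpm in controls and 16.1, 15.05 and 14.9 rpm in the SAM68 libraries, with overlapping groups and a log2 fold change of -0.08 (standard error 0.19). Whether the changes of the 2 shugoshins differ was not tested.

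CEP250 (ENSG00000126001.15, chr20:35455164-35519280, + strand), also known as C-Nap1, had 31.7, 37.6 and 34.1 rpm in controls and 18.8, 22.0 and 24.4 rpm in the SAM68 libraries. The groups were apart, with a log2 fold change of -0.66 (standard error 0.15, adjusted p = 0.0385 from limma). This value comes from the event at exon 25 (chr20:35496577-35496715). The other events of the gene moved less, so that the median log2 ratio over its 15 events was -0.19 and the highest 0.01. With the reads of all events of each gene summed, the log2 fold change of CEP250 was -0.21 (adjusted p = 0.214 from limma), and the call ended. The same sum gave -0.92 for CEP290 (adjusted p = 0.0451 from limma) and -0.88 for SGO2 (adjusted p = 0.10). SGO2 has no further tested event to add. The sums were scaled to the larger total over all events with the same pseudocount, which shrinks the fold changes of low genes further.

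**Figure D2:**
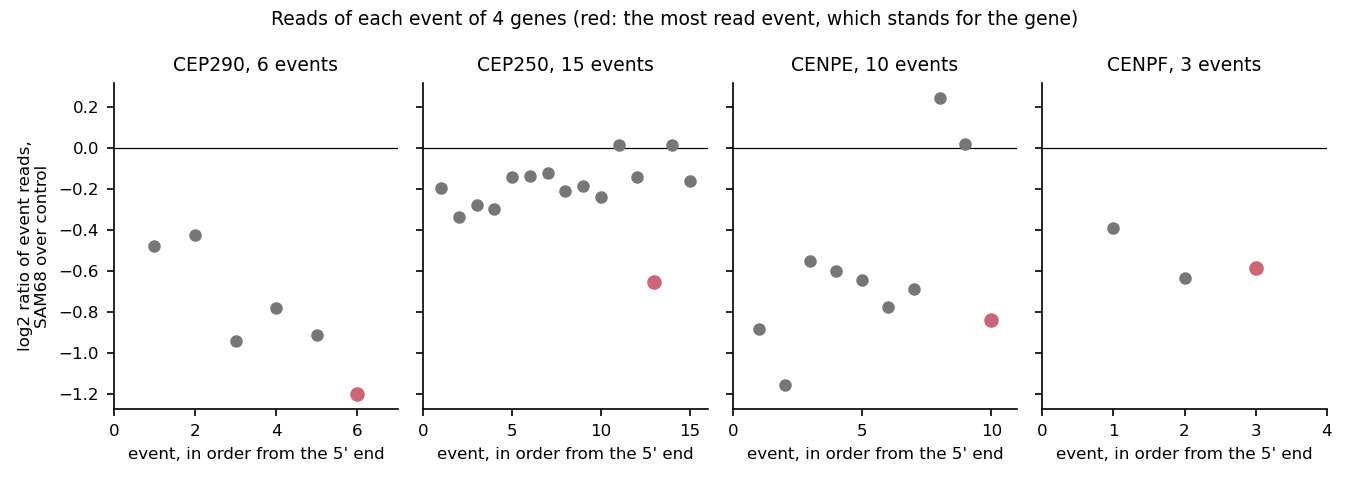
Log2 ratio of the scaled reads of each event (SAM68 over control mean) for CEP290, CEP250, CENPE and CENPF, with events in order from the 5ʹ end of the gene on the x axis and the most read event in red. Every event of CEP290 and CENPF is below 0, whereas the most read event of CEP250, at -0.65, lies apart from its other 14.

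These calls rest on few libraries. Leaving out any single control library, or SAM68 library 1, took CEP290, SGO2 and CEP250 past an adjusted p of 0.05, with values from 0.0828 (SGO2 without control library 3) to 0.277 (SGO2 without control library 1) from limma. SGO2 also lost its call without SAM68 library 2 (adjusted p = 0.0594). Over all 6 such fits the log2 fold change stayed between -1.28 and -1.12 for CEP290, -1.24 and -0.91 for SGO2, and -0.74 and -0.56 for CEP250. Without a control library or SAM68 library 1, the genes lower at the adjusted p fell from 30 to between 1 and 6 over all genes, so the loss was not particular to these 3. With median-of-ratios scaling the adjusted p was 0.0522 for CEP290, 0.0629 for SGO2 and 0.0584 for CEP250, at log2 fold changes of -1.16, -1.02 and -0.63.

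Among the other genes of centriole assembly, CEP350, which binds the centriole and microtubules, had 3.96, 4.46 and 5.69 rpm in controls and 1.26, 1.10 and 1.83 rpm in the SAM68 libraries. It had a log2 fold change of -1.46 (standard error 0.40, adjusted p = 0.103 from limma), on a mean of 18.2 reads. With a pseudocount of 5 this shrank to -0.60, and that of CEP290 to -0.74 and of SGO2 to -0.72. CEP152, a scaffold that brings the kinase PLK4 to the centriole, had 3.45, 4.46 and 3.68 rpm against 1.74, 1.65 and 2.57 rpm, also without overlap, and a log2 fold change of -0.82 (adjusted p = 0.403), or -0.34 with a pseudocount of 5. CEP192, which recruits pericentriolar material, had a log2 fold change of -0.23 and overlapping groups, and without SAM68 library 2 it was -0.09. Of the 15 genes of this group 12 were lower and 3 higher, and none passed the adjusted p. CENPJ was counted with the CENP genes and not in this group.

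In the group of cilium and appendage genes, 10 of 15 were lower and 5 higher, and CEP290 alone passed the adjusted p. CEP126, a protein of the ciliary base, had 4.65, 5.25 and 5.19 rpm in controls and 2.68, 2.39 and 1.83 rpm in the SAM68 libraries, with a log2 fold change of -0.99 (adjusted p = 0.234 from limma), or -0.46 with a pseudocount of 5. CEP112 stood at the other end of the group with 0.39, on overlapping libraries, and had 0.09 without SAM68 library 1. With all events summed it turned to -0.23, and 3 of its 4 events were lower. All 5 genes of centrosome linkage and abscission had values below 0, from -0.66 for CEP250 to -0.01 for CEP95. CEP55, which brings the abscission machinery to the midbody, had 76.7, 96.7 and 74.8 rpm in controls and 74.2, 57.3 and 87.3 rpm in the SAM68 libraries, so its groups overlapped. Its log2 fold change of -0.19 became -0.03 without SAM68 library 2 and -0.08 without control library 2.

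The genes of the inner kinetochore lay near 0. Their median log2 fold change was 0.05 over 16 genes, 7 lower and 9 higher, and none passed the adjusted p. CENPA, the centromeric histone, had 42.1, 47.9 and 45.8 rpm in controls and 49.4, 52.8 and 50.1 rpm in the SAM68 libraries. Its SAM68 libraries lay over the control libraries by a narrow margin, with a log2 fold change of 0.17 (adjusted p = 0.579 from limma). CENPC, CENPT and CENPU had 0.21, 0.05 and 0.29 on the same scale, of which CENPC and CENPT changed sign when 1 library was left out and CENPU had 0.19 without SAM68 library 2. CENPK was lowest at -0.34 (standard error 0.14, adjusted p = 0.319), and had -0.20 without SAM68 library 1. The largest positive value of any member, 0.64 (adjusted p = 0.163), was that of CENPS-CORT (0.38 with all events summed), while CENPS itself had 0.13.

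The motor protein CENPE and the large coiled-coil protein CENPF belong to the mitotic corona of the kinetochore. CENPF had 36.5, 29.9 and 31.6 rpm in controls and 18.6, 21.5 and 24.8 rpm in the SAM68 libraries, without overlap. It had a log2 fold change of -0.59 ± 0.15 (standard error) and an adjusted p of 0.0717 from limma, and all 3 of its events were lower. CENPE had 11.2, 15.8 and 9.54 rpm in controls and 3.79, 6.79 and 9.17 rpm in the SAM68 libraries. The margin between its groups was small, with a log2 fold change of -0.89 (standard error 0.28, adjusted p = 0.174) that became -0.56 without SAM68 library 1, and 8 of its 10 events were lower.

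**Figure D3:**
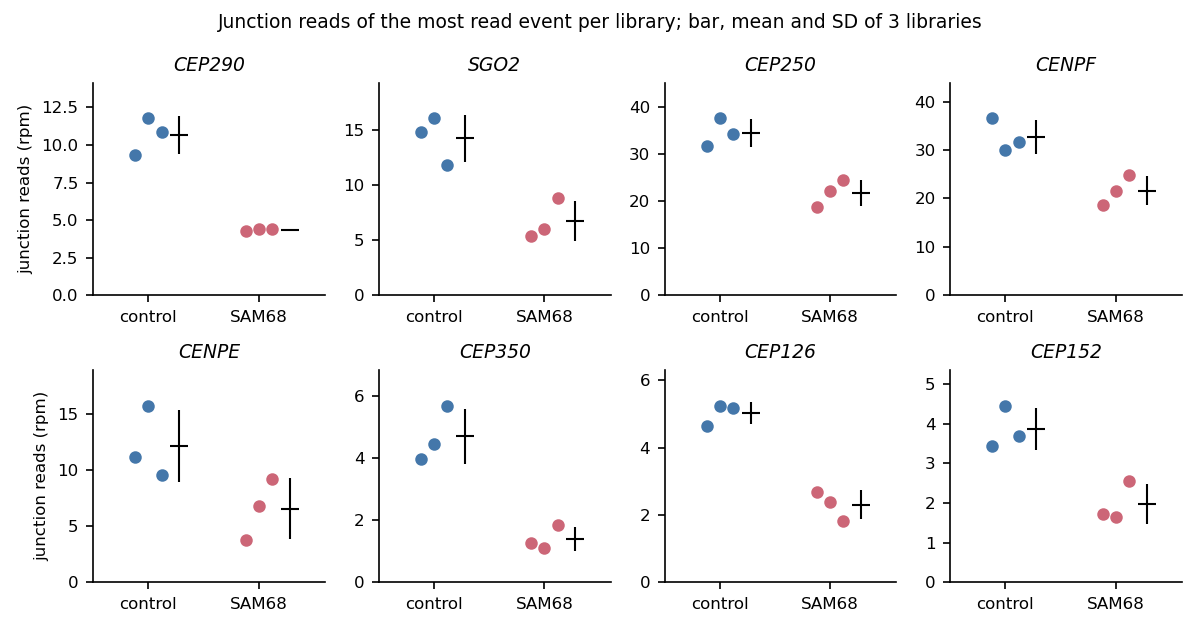
Junction reads (rpm) of the most read event in each of the 6 libraries for 8 genes, with the mean and SD of the 3 control and 3 SAM68 libraries as bars beside the points. In all 8 genes the highest SAM68 library is under the lowest control library, and CENPE has the narrowest gap.

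Several of the low genes have long transcripts. The 11 members with the longest canonical transcripts in GENCODE 44 (7612 to 34626 bases, the top of 10 equal bins of all genes) had a median log2 fold change of -0.59. CEP350, CEP290, CEP250, CENPE and CENPF were among them. The rest were CEP97 with -0.72, CEP295 with -0.52, CEP192 with -0.23, CEP57L1 with -0.22, CEP78 with -0.08 and CENPP with 0.14. All 1013 genes of that bin had a median of -0.12, and the bin of the shortest had -0.01. In the next longest bin the 9 members had a median of -0.05 and all genes there -0.07. Over both bins the 20 members had -0.24 and the other 2002 genes -0.09. The genes of the longest bin summed to 29226 to 30582 rpm in controls and 27614 to 29719 rpm in the SAM68 libraries. SGO2 (4478 bases) lay outside it. The part of transcript length in these results was not tested.

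Partner genes outside the families were read for comparison, and the shares over all genes at the adjusted p are those given above. Of 38 centriole and pericentriolar partners such as PLK4 and PCM1, 24 were lower and 14 higher, with a median log2 fold change of -0.04 and none past the adjusted p. Of 32 genes of the outer kinetochore, the spindle checkpoint and CENPA loading, only BUB3, a checkpoint protein, passed it, with -0.30 (adjusted p = 0.0400 from limma), and the median was -0.01. Of 22 genes of cohesin and its protection, 15 were lower and 7 higher, with a median of -0.08, and none passed. At an unadjusted p under 0.05, 5 of these 22 were lower and 2 were higher, beside 8.33% and 3.74% of all genes. PDS5B, a cohesin regulator, was among the lower with -0.61. PTTG1, which encodes the separase inhibitor securin, came nearest to the adjusted p in this list, with 0.28 (adjusted p = 0.0528 from limma). The centriole and the outer kinetochore lists each had 3 lower and 1 higher at an unadjusted p under 0.05. None of the 378, 251 and 153 events of these lists was called for splicing, beside 0.0934% of all tested events.

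Splicing of the member genes was described by 277 SE, 35 MXE, 34 A3SS, 27 A5SS and 11 RI events. A call took an adjusted p under 0.05 and a difference of at least 10 points in the quasi-binomial test, and no member event met it, beside 0.0934% of all tested events. None passed the adjusted p without the limit on size either, beside 0.259% of all events. At an unadjusted p under 0.05 there were 21 member events (5.47%), and 5.95% of all events. Groups that did not overlap and differed by at least 10 points were found in 8 member events (2.08%), and in 1.64% of all events. The median absolute difference was 1.96 points over the members and 1.24 points over all events, at a median of 60.8 and 111 reads per library.

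**Figure D4:**
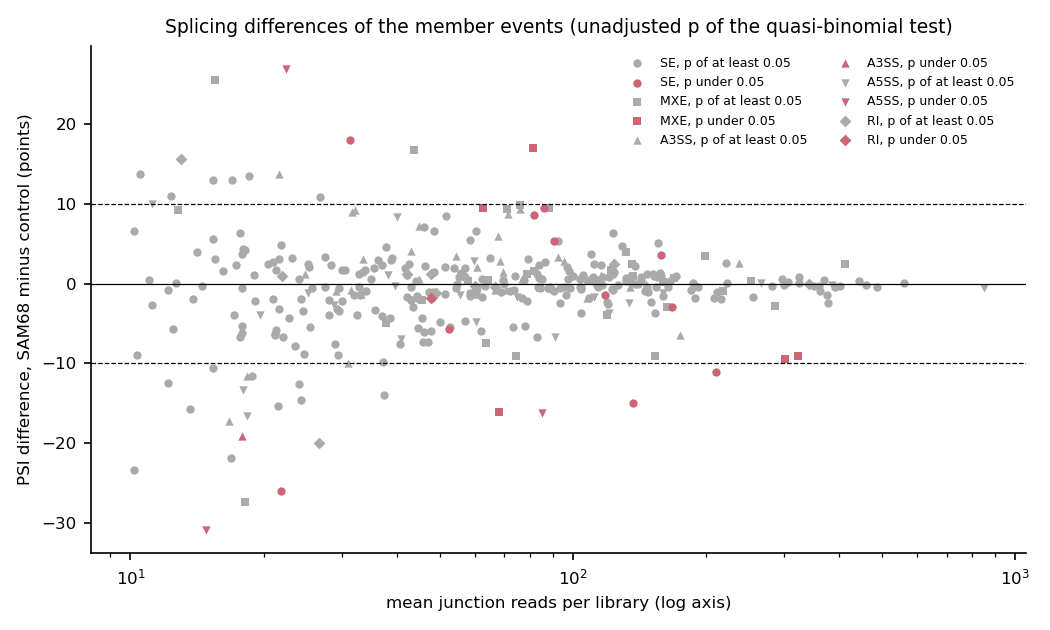
PSI difference (SAM68 minus control, percentage points) against the mean junction reads per library (log axis) for the 384 member events, with event types by symbol and an unadjusted p under 0.05 in red; dashed lines mark 10 points. The differences narrow as reads increase, and the 2 red circles under -10 points at more than 100 reads are events of CENPK.

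Most member exons were read as constitutive, as over all genes: 197 of the 277 member SE events and 34151 of all 47450 SE events had a mean PSI of at least 90%. Among 238 distinct skipped exons, 171 belong to the canonical transcript of their gene, and 147 of these had a mean PSI of at least 90%. Another 38 had a PSI between 10% and 90%, of which 21 keep the reading frame by length. In 31 of the 35 MXE events, both exons belong to the canonical transcript, so that a PSI near the middle (median 45.5%) does not stand for a choice between 2 isoforms.

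CENPK (ENSG00000123219.12, chr5:65517766-65563168, - strand) held the member events with the smallest p. It encodes a subunit of the inner kinetochore that sits with CENPH and CENPI. Its exon 2 ends at either of 2 donor sites 34 bases apart in the 5ʹ UTR, and its exon 3 begins at either of 2 acceptor sites 48 bases apart. The annotated start codon (chr5:65554905-65554907) lies between the 2 acceptors, so that the choice of site, or the skipping of exon 3, decides whether it is kept. The 4 sites are shown because the reads that follow distinguish them; each holds 15 exon and 15 intron bases of GRCh38, read 5ʹ to 3ʹ, with the GT or AG of the intron in capitals.
Exon 2, upstream donor (chr5:65561482-65561511): atgaccctcttccagGTtacatacagctta
Exon 2, downstream donor (chr5:65561448-65561477): ttgcatcctcaagcgGTagagagcaaactc
Exon 3, upstream acceptor (chr5:65554932-65554961): tattttttgctttAGtttttcttataaggc
Exon 3, downstream acceptor (chr5:65554884-65554913): atatcaatgaatcAGgaggatctagatccg

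With exon 2 ending at the downstream donor, the 102-base form of exon 3 (chr5:65554797-65554898) had a PSI of 94.3%, 100% and 94.9% in controls and 74.0%, 84.4% and 86.0% in the SAM68 libraries. The groups did not overlap, and the difference was -14.9 points (p = 0.000258, adjusted p = 0.121 in the quasi-binomial test), or -9.36 points without length normalization. The 150-base form (chr5:65554797-65554946) had -11.1 points (adjusted p = 0.132), but both events count the same skipping reads. These were 5, 0 and 5 reads in controls and 18, 11 and 10 reads in the SAM68 libraries. When exon 2 ended at the upstream donor, the skipping reads went the other way, with 16, 14 and 2 in controls and 4, 3 and 5 in the SAM68 libraries. Over both donors the skipping reads were 21, 14 and 7 in controls and 22, 14 and 15 in the SAM68 libraries, and the groups overlapped. The summed PSI of the 102-base form then differed by -5.59 points (adjusted p = 0.730).

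The downstream donor thus carried 23.8%, 0% and 71.4% of the skipping reads in the controls and 81.8%, 78.6% and 66.7% in the SAM68 libraries. Control library 3 lay within the range of the SAM68 libraries, on 7 reads. The same junctions enter an A5SS event, in which the longer exon 2 joined to exon 4 had a PSI of 33.3%, 40.6% and 82.7% against 81.4%, 81.0% and 75.2% (27.0 points, adjusted p = 0.631). This difference was 17.5 points without control library 1 and 42.3 points without control library 3. Joined to the 150-base exon 3, the longer exon 2 went the other way, with 97.8%, 90.8% and 87.8% in controls and 63.1%, 80.7% and 83.7% in the SAM68 libraries (-16.3 points, p = 0.00544, adjusted p = 0.530 in the quasi-binomial test). Summed over what follows exon 2, the use of the downstream donor was 78.3%, 82.9% and 88.3% in controls and 72.1%, 82.4% and 79.5% in the SAM68 libraries (-5.15 points, adjusted p = 0.832), with overlapping groups.

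**Figure D5:**
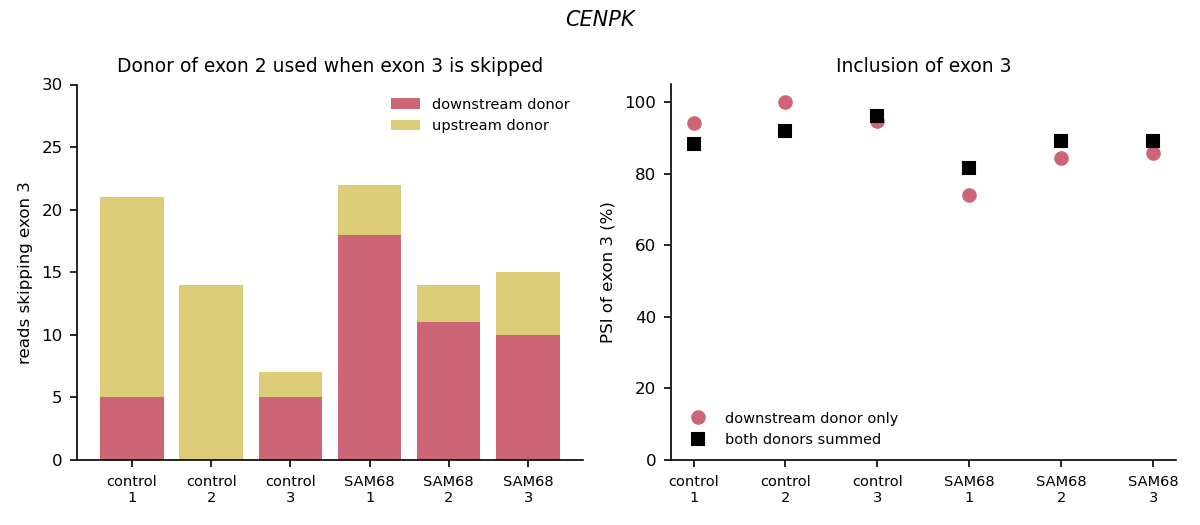
Left, reads that skip exon 3 of CENPK in each library, stacked by the donor of exon 2 they use; right, PSI (%) of the 102-base exon 3 with the downstream donor only (red) and with both donors summed (black). The stacks of the 2 groups overlap in height (7 to 21 and 14 to 22 reads), and the red points of the SAM68 libraries lie under those of the control libraries.

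Other inner kinetochore events showed smaller or less even differences. In CENPN, which reads the CENPA nucleosome, the MXE pair of exons 4 and 5 had a PSI of 48.7%, 52.6% and 48.8% in controls and 46.2%, 39.6% and 36.9% in the SAM68 libraries, without overlap (-9.10 points, adjusted p = 0.35 in the quasi-binomial test). In CENPP, exons 3 and 4 gave 45.9%, 60.9% and 62.3% against 37.5%, 48.3% and 35.2% (-16.0 points, adjusted p = 0.521), with overlapping groups. CENPA exon 3, coding, was included at 91.8%, 91.8% and 90.5% in controls and 96.0%, 88.9% and 88.3% in the SAM68 libraries. CENPT exon 6, CENPE exon 41 and CENPF exon 15 all had a PSI of 94.0% or more in each library.

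Among the CEP genes, CEP70 gave the largest difference at more than 50 reads per library. Its exons 14 and 15, read as an MXE pair, had a PSI of 44.1%, 44.4% and 30.8% in controls and 57.1%, 46.8% and 66.7% in the SAM68 libraries. The highest control and the lowest SAM68 library lay close together, and the mean difference was 17.1 points (p = 0.0215, adjusted p = 0.468 in the quasi-binomial test). CEP290 exons 47 and 48 had 38.5%, 34.5% and 25.9% against 50.6%, 54.4% and 44.2%, also apart (16.7 points, adjusted p = 0.742), in the gene whose reads fell. In these pairs both exons are canonical.

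Of the 21 exons that were read in both forms and keep the frame, 3 in CEP genes are shown as examples of isoforms that these cells make side by side. The letters are GRCh38 on the coding strand, with the intron's AG and GT in capitals.
CEP78 exon 15 (chr9:78265857-78265908): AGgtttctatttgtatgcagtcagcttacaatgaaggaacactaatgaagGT
CEP164 exon 8 (chr11:117363427-117363508): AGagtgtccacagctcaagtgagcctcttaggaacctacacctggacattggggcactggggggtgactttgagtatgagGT
CEP63 alternative exon (chr3:134559148-134559307): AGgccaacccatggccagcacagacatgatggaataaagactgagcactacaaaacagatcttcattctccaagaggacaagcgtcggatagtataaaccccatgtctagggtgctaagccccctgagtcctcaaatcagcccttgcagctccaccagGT

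CEP78, a centriolar protein linked to retinal and hearing disease, included its 48-base exon 15 at 49.96%, 41.3% and 35.4% in controls and 41.9%, 35.2% and 47.2% in the SAM68 libraries. The groups overlapped, and the difference was -0.79 points at a mean of 124 reads. CEP164, the distal appendage protein that docks the centriole to the membrane, included its 78-base exon 8 at 58.9%, 61.6% and 49.7% in controls and 28.7%, 64.2% and 35.3% in the SAM68 libraries. Libraries 1 and 3 of the SAM68 group were low and library 2 was the highest of all, for a difference of -14.0 points (adjusted p = 0.699 in the quasi-binomial test). This was -6.97 points without SAM68 library 1 and -24.7 points without SAM68 library 2. CEP63, which works with CEP152 in centriole duplication, included its 156-base exon at 23.1%, 20.8% and 33.3% in controls and 20%, 2.86% and 10.6% in the SAM68 libraries. The groups did not overlap, by a narrow margin, and the difference was -14.6 points at a mean of 24.3 reads (adjusted p = 0.699).

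SAM68 is known to bind RNA rich in A and U, with UAAA among its preferred motifs. The letters TAAA, on the coding strand only, were present in the 100 intron bases before or the 100 after 59.5% of 38685 tested skipped exons and 75.1% of 237 member exons. CENPK exon 3 was counted at its 102-base form, and the 48 bases before that form are exon in the longer one. It had 4 such matches, and 9.68% of all exons had as many or more. CEP78 exon 15 had 2, the CEP63 exon 1 and CEP164 exon 8 none. Base composition also sets this share, and a match does not mark a bound site.

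SGO1 has a long exon with an alternative 5ʹ splice site (chr3:20174249-20175004) that adds or removes 756 coding bases. The long form had a PSI of 43.9%, 63.6% and 69.2% in controls and 33.3%, 73.3% and 69.2% in the SAM68 libraries. The library listed first was lowest in each group, and the groups overlapped, with a difference of -0.28 points at a mean of 39.7 reads. SGO2 exon 2 was included at 98.0% to 100% in all libraries.

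Some large differences rested on few reads or on 1 library. CEP126 exon 6 was at 100% in the 3 control libraries and at 78.9%, 100% and 42.9% in the SAM68 libraries (-26.1 points, adjusted p = 0.679 in the quasi-binomial test), on 2, 0 and 4 skipping reads in the latter. Without SAM68 library 3 the difference was -10.5 points. In CEP57L1, a paralog of CEP57, control library 2 included a 5ʹ UTR exon at 45.8% and the other 5 libraries at 100% (18.1 points, adjusted p = 0.640).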

How the data were processed

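RNA of 3 control and 3 SAM68 cultures of NCI-H1975 was sequenced. Per the labels and the methods, the authors trimmed reads with fastp 0.20.0, aligned them to GRCh38 with HISAT2 2.1.0 and called splicing events with rMATS. The deposited tables hold, per event, lists of inclusion and skipping junction read counts and the forms' effective lengths, with 1 value per library. The first list was taken as control and the second as SAM68, after the study's own labelling of the groups, and KHDRBS1 was read to check it. The tables also hold the authors' p-values, FDR and differences of inclusion level, which were not used. The lists carry no replicate numbers, so libraries are named by their place in the list. Of 78336 events, 113 whose lists could not be read without doubt were left out, none of them a member.

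PSI was computed from the counts and effective lengths, and an event was tested where its reads averaged 10 or more over the libraries. The quasi-binomial test used 1 common dispersion per event type (2.01 to 2.53), since moderation with limma 3.58.1 in R 4.3.3 gave no weight to the spread of a single event, and Benjamini-Hochberg adjustment within the type. Genes were tested on log2(rpm + 0.5) with limma, so that fold changes of low genes are understated. Adjacent events share reads and are not independent. Members and gene lists were chosen with earlier results of these data known. Events and genes were named by a rule on p, size, reads and role. Exons and transcript lengths follow GENCODE 44. Alternatives covered the read minimum, the pseudocount, the scaling, the event that stood for a gene, the test and each library left out. The p-values rest on 3 against 3 libraries of these cultures. Those of the events draw on the common dispersion of their type, not on the spread of the event itself. An exact permutation test of a single value cannot go below 0.1.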

Additional observations from a re-analysis of the deposited data

How the results depend on the processing

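No paired analysis was possible because the deposited lists carry no replicate numbers. The count of member events called was 0 under each alternative but 1: a likelihood ratio test on counts pooled over libraries, which ignores the spread between them, called 10 members and 1354 of all events. With a dispersion of its own for each event, 2 of all events were called in place of 62. Member genes called numbered 2, also with a pseudocount of 0.1 and with the most read SE event (5 of all genes in both), 1 with a minimum of 50 or of 1 mean read (2 and 5 of all genes), and 0 with a pseudocount of 5, with median-of-ratios scaling or with the sum of all events (2, 3 and 3 of all genes). The count was 0 to 2 with 1 library left out, beside 1 to 12 of all genes. With a minimum of 50 reads, CEP290 was no longer tested. Members lower at an adjusted p under 0.05 numbered 3, 0 with median-of-ratios scaling, 1 with the sum of all events, and 0 to 4 with 1 library left out, beside 1 (without control library 2) to 73 (without SAM68 library 2) of all genes. CENPF joined them without SAM68 library 3 (adjusted p = 0.0340 from limma), where 67 of all genes were lower in place of 30. None was higher under any alternative, and at an unadjusted p under 0.05 the count was 1. Median-of-ratios scaling turned the split over all genes from 30 lower and 12 higher to 11 lower and 14 higher.

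Values that changed sign were small or rested on few reads; the cause was not tested. The A5SS event of CENPK joined to exon 4 turned to -5.15 points when summed over what follows exon 2, and the 332-base CENPA exon to -0.24 points without length normalization. The sum of all events gave log2 fold changes of -0.077 for CENPL, -0.23 for CEP112 and -0.11 for CENPC, and the most read SE event gave -0.44 for CENPC. With 1 library left out, PSI differences ranged from -7.80 to 12.4 points for the SGO1 A5SS event, -2.01 to 2.89 for CEP170 exons 7 and 8, -3.16 to 5.60 for CENPP exons 2 and 3, -0.033 to 7.34 for CENPH exons 4 and 6, -5.52 to 0.39 for CEP55 exons 4 and 5, -0.81 to 1.46 for CEP192 exon 42, -0.75 to 2.66 for CENPE exon 41, -10.5 to 1.6 for CENPE exon 18, -9.14 to 1.70 for CEP290 exon 48, -4.19 to 3.08 for CEP78 exon 15, -5.86 to 4.21 for the 332-base CENPA exon, -2.77 to 1.08 for CENPA exon 3, and -0.0046 to 0.44 for CENPK exon 5. Log2 fold changes ranged from -0.0086 to 0.44 for CEP41, -0.27 to 0.60 for CENPC, -0.055 to 0.13 for CENPT and -0.18 to 0.059 for SGO1. KHDRBS1 stayed between 1.94 and 2.01 in all alternatives.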
